A study of Arabidopsis thaliana with 9 samples.

Results

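The 10 genes described here encode trehalose-6-phosphate synthases (TPS) and trehalose-6-phosphate phosphatases (TPP) of Arabidopsis thaliana. They were chosen by locus identifier from the 23338 loci of a table of read counts, with earlier results of these data known. They are TPS1 (AT1G78580), TPS5 (AT4G17770), TPS6 (AT1G68020), TPS7 (AT1G06410), TPS8 (AT1G70290), TPS9 (AT1G23870), TPS10 (AT1G60140), TPS11 (AT2G18700), TPPA (AT5G51460) and TPPB (AT1G78090). All 10 had a row in the table, and 7 of them passed the filter on low counts, which asks for a minimum level in at least 3 libraries: TPS1, TPS5, TPS6, TPS7, TPS10, TPS11 and TPPA. None of the 7 passed the quasi-likelihood test of edgeR after adjustment over all genes kept by that filter. For LD3 against LD0, TPS11 passed by DESeq2, among 296 of 9300 genes, and without the filter, among 367 of 23312. TPS11 had the lowest p-values of the family, and its level in each of the 3 libraries taken after 3 long days was below its level in each of the 3 libraries taken before the first long day.

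The libraries were made from shoot apical meristems, the dividing tissue at the tip of the shoot, cut out by laser from plants of accession Col-0. The labels give a short-day regime, with 8 h of light in the day and 16 h of dark, and a long-day regime, with 16 h of light and 8 h of dark. Plants had 0, 1 or 3 of the long days (LD0, LD1 and LD3). The label of LD0 is a stage before induction, and the series asks how transcript levels change as the vegetative meristem becomes a transition meristem, with floral meristems not yet formed. All libraries shared the accession, the dissection, an RNA amplification step and random-primed cDNA. Each time point had 3 libraries, A, B and C, where A and B were shotgun libraries of the whole transcriptome and C was a library supplied ready to run. How many plants went into a library is not stated, so the spread behind every p-value is that between the libraries at hand, and it may be technical.

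Depth ran from 97153 to 11145220 reads assigned to loci, and the 3 reads that a gene with a count of 0 may still have had corresponded to 0.337 CPM in LD3 C and up to 28.5 CPM in LD0 B. CPM are the reads of a gene per 1000000 reads of the TMM-scaled library size, and these limits cover counting error only. They take each read as a separate count. In 7 libraries a fragment can count in both reads of its pair, and there the limits can be too low. The C libraries of LD1 and LD3 detected fewer loci for their depth than the B libraries: 9909 against 15315 loci at LD1, with 714559 and 711363 reads, and 15587 against 17340 loci at LD3, with 11145220 and 1298372 reads. The limits above are set by depth alone. The cause of the fewer loci, and its part in the counts of 0 found in LD1 C and LD3 C, were not tested. The meristem markers STM and CLV3 had reads in all 9 libraries, while WUS had reads in 5. Markers of other tissues were present as well. The 13 seed markers, a list drawn up with their high counts in these libraries already known, held between 1.50% and 6.54% of all reads at LD0, between 0.0970% and 2.16% at LD1 and between 0.0659% and 0.328% at LD3. Of the vascular markers, no read was found in LD1 A and LD3 A, and the summed level was highest in LD1 B, at 751 CPM, and LD0 B, at 475 CPM.

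Trehalose 6-phosphate is a sugar phosphate whose amount follows that of sucrose in plant cells. A TPS makes it from UDP-glucose and glucose 6-phosphate, a TPP removes its phosphate to give trehalose, and trehalase splits trehalose into glucose. It inhibits SnRK1, the protein kinase that switches plant cells to a starvation programme, and plants with too little TPS1 flower late or not at all, with roles known in the leaf and in the shoot apical meristem. TPS1 is the class I enzyme that carries the main synthase activity. TPS5 to TPS11 form class II, which has synthase-like and phosphatase-like domains but little or no measured activity. In seedlings, transcripts of TPS8 to TPS11 are known to be high when sugar is short, and those of TPS5 are known to rise when sugar is supplied.

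The class II genes share short exact runs, and a read no longer than such a run can match more than 1 of them exactly. Between the coding sequences of the 7 class II genes in RefSeq TAIR10.1, identity ran from 66.48% to 81.55% with a median of 68.0% over 21 pairs, and TPS8 and TPS9 were the most alike. The 3 pairs shown here hold the longest exact runs that TPS8, TPS11 and TPS5 share with another class II gene, and are shown because a read inside such a run cannot be assigned to 1 gene. Capitals mark the shared run, and lower case the 15 coding bases on either side.
TPS9: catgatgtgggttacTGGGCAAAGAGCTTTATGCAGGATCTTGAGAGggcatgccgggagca
TPS8: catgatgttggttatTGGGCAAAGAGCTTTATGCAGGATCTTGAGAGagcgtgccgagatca
TPS6: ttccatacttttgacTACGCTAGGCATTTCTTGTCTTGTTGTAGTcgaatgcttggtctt
TPS11: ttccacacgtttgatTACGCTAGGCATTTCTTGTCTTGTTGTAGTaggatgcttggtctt
TPS6: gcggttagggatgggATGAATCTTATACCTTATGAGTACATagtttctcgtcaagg
TPS5: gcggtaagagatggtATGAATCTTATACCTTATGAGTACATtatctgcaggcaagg

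The run shared by TPS9 and TPS8 is 32 bases, that of TPS6 and TPS11 is 30 bases, and that of TPS6 and TPS5 is 26 bases. TPS1 shared its longest run, 44 bases, with TPS4, a class I gene not analysed here, and TPPB shared 26 bases with TPPC. No source used here gives the read length or how a read with several matches was counted. A count that rests on a few reads of TPS8 or TPS9 is therefore uncertain.

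Of the 90 values that 10 genes give in 9 libraries, 25 were 0 reads, 13 were 1 to 3 reads and 52 were above 3 reads. The genes held 5277 reads in all, of which TPS1 took 26.2%. Ordered by mean level over the 9 libraries in CPM per kb of coding sequence, TPS7 came first at 37.7 ± 70.3 (SD, n = 9), followed by TPS1 at 30.6 ± 25.2, TPS11 at 29.2 ± 44.6 and TPPA at 27.1 ± 19.4. TPS6 at 11.2 ± 14.2, TPS5 at 8.32 ± 10.8, TPS10 at 7.02 ± 9.50, TPS8 at 6.33 ± 14.4 and TPS9 at 5.26 ± 9.35 were lower, and TPPB was last at 0.870 ± 1.98. The ranges over the 9 libraries overlapped between every pair of neighbours in this order. By the median, which 1 high library moves less, TPS1 at 26.9 CPM per coding kb and TPPA at 25.0 stood above TPS7 at 15.3 and TPS11 at 14.7.

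**Figure D1:**
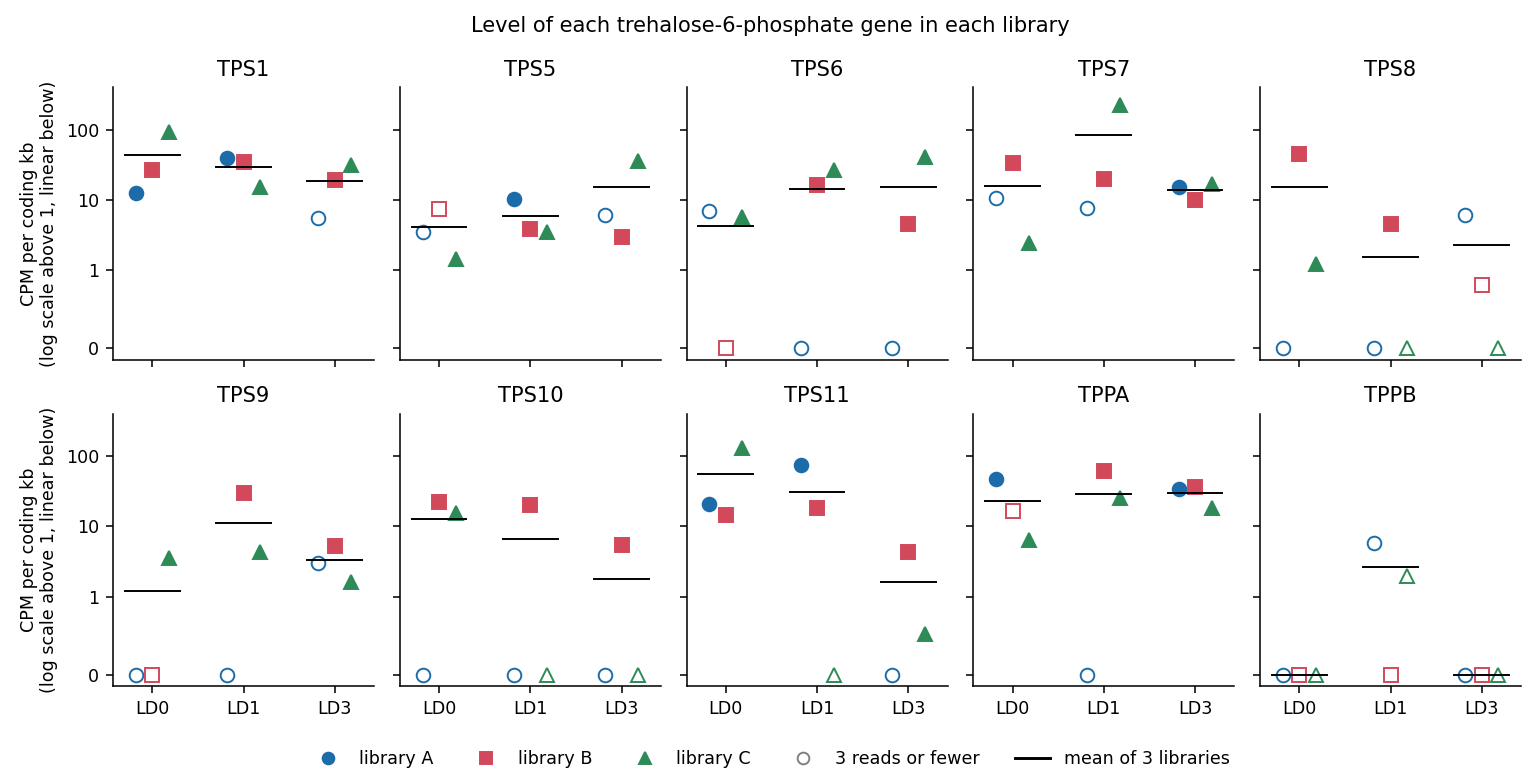
Level of each of the 10 genes in each library, in CPM per kb of coding sequence on an axis that is logarithmic above 1 and linear below, by time point. Symbols are libraries A, B and C, open symbols are values from 3 reads or fewer and the line is the mean of 3 libraries; TPS1 and TPS5 had reads in all 9 libraries, whereas TPPB had 1 read in each of 2.

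TPS1, the class I synthase, was read in every library. Its level at LD0 was 35.9 CPM in library A, 76.0 in B and 257 in C, at LD1 112, 97.2 and 42.3, and at LD3 15.6, 54.7 and 87.5. The groups overlapped, since the highest value stood at LD0 and the lowest, from 2 reads, at LD3, and C was the highest library of LD0 and LD3 but the lowest of LD1. Means were 123 ± 118 CPM at LD0, 83.8 ± 36.7 at LD1 and 52.6 ± 36.0 at LD3 (SD, n = 3 each). The fitted log2 fold change of TPS1 was -0.14 ± 0.97 (SE) for LD1 against LD0, with an adjusted p of 0.986 by the quasi-likelihood test of edgeR, and -1.06 ± 0.91 for LD3 against LD0, with an adjusted p of 0.845. In libraries A and B alone these values were 0.90 and -0.54, so that the sign of the first depended on library C.

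Among the class II genes, TPS5, TPS6 and TPS7 had most of their reads in LD3 C, the deepest library, and TPS10 and TPS11 had most in LD0 C. Reads follow depth, and TPS1 and TPPA also had most of theirs in LD3 C. In CPM, TPS7 was highest in LD1 C. TPS5, whose transcripts are known to rise with sugar in seedlings, stood at 8.97, 19.0 and 3.70 CPM at LD0, at 26.3, 10.06 and 8.90 at LD1 and at 15.6, 7.62 and 93.6 at LD3 in libraries A, B and C. LD3 C was the only library above 30 CPM and held 95.9% of all TPS5 reads, although it was also the deepest library. The fitted change of TPS5 from LD0 to LD3 was 1.88 ± 1.60 with an adjusted p of 0.842, and it was -0.46 in libraries A and B alone.

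TPS6, known for a part in the shape of epidermal cells, was listed with 2, 0 and 24 reads at LD0, 0, 25 and 31 at LD1 and 0, 17 and 942 at LD3. This gave 17.9, 0 and 14.8 CPM at LD0, 0, 41.9 and 69.0 at LD1 and 0, 11.8 and 106 at LD3. Library A had at most 2 reads of TPS6 at each time point, B and C of LD1 both stood above all LD0 libraries, and LD3 C was the highest of all. The changes of TPS6 were 1.80 ± 1.63 for LD1 against LD0 and 1.19 ± 1.67 for LD3 against LD0, with adjusted p-values of 0.882 and 0.915. LD3 C held 90.5% of all TPS6 reads, and in libraries A and B alone the second change was -0.11.

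TPS7, a class II gene, had reads in all 9 libraries. It stood at 26.9, 85.5 and 6.16 CPM at LD0, at 19.8, 50.3 and 572 at LD1 and at 39.0, 25.6 and 42.5 at LD3. The mean of 214 ± 310 CPM at LD1 rested on LD1 C, where reads 1 and 2 of the sequenced pairs gave 124 and 133 counts. At LD3 the 3 libraries lay close together, with a mean of 35.7 ± 8.90 CPM beside 39.5 ± 41.1 at LD0. The change of TPS7 from LD0 to LD1 was 1.59 ± 1.53 with an adjusted p of 0.890, and it was -0.14 without LD1 C.

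TPS8 and TPS9, the 2 most alike synthase genes, did not pass the filter on low counts. TPS8 had 0, 12 and 5 reads at LD0, 0, 7 and 0 at LD1 and 2, 3 and 0 at LD3. The 12 reads of LD0 B stood for 114 CPM, and all other libraries were below 20 CPM. TPS9 had 0, 0 and 15 reads at LD0, 0, 46 and 5 at LD1 and 1, 20 and 37 at LD3, and its highest level was 77.1 CPM in LD1 B. In library A, whose 3 libraries were all shallow, neither gene had more than 2 reads.

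TPS10 was found in 4 libraries, LD0 B with 6 reads, LD0 C with 66, LD1 B with 31 and LD3 B with 20. These stood for 56.99, 40.7, 52.0 and 13.9 CPM. In LD3 C the count was 0, where 3 reads would have been 0.337 CPM, while LD0 C at 40.7 CPM and LD3 C were libraries of the same preparation. A count of 0 in LD3 A allowed up to 23.4 CPM, so the levels at LD3 and LD0 could not be told apart in library A. The fitted change of TPS10 from LD0 to LD3 was -4.26 ± 2.46 with an adjusted p of 0.730. In libraries A and B alone it was -1.53, and under none of the 18 alternative settings that tested TPS10 did the adjusted p pass 0.05.

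TPS11 is a class II gene whose transcripts are known to be high in sugar-starved seedlings. Its reads numbered 6, 4 and 550 at LD0, 29, 28 and 0 at LD1 and 0, 16 and 12 at LD3 in libraries A, B and C. In CPM these were 53.8, 38.0 and 339 at LD0, 191, 46.9 and 0 at LD1, and 0, 11.1 and 1.35 at LD3. Every LD3 library was thus below every LD0 library, while LD1 held both a library at 0 and the second highest of the 9. The count of 0 in LD3 A allowed up to 23.4 CPM, below the 38.0 CPM of LD0 B. That value itself rests on 4 reads, 2 in each read column, and has a wide counting error. Counting alone therefore does not keep these libraries apart. Means were 144 ± 169 CPM at LD0, 79.3 ± 99.5 at LD1 and 4.14 ± 6.05 at LD3 (SD, n = 3 each).

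TPS11 was the only one of the 10 genes whose LD3 and LD0 libraries did not overlap, and over the 9300 genes tested 5.18% had all LD3 libraries lower and 7.55% all higher. Between LD1 and LD0 (4.44% of all genes lower and 4.3% higher) and between LD3 and LD1 (1.96% lower and 7.2% higher) the libraries of every member overlapped. Its fitted log2 fold change was -5.32 ± 2.06 for LD3 against LD0, with an unadjusted p of 0.0250 and an adjusted p of 0.571 by the quasi-likelihood test of edgeR. For LD3 against LD1 it was -3.82 ± 1.72, with an unadjusted p of 0.0471 and an adjusted p of 0.973, and for LD1 against LD0 -1.50 ± 2.09, with an adjusted p of 0.926. The last value was 1.33 in libraries A and B alone, 0.91 without LD0 C and 0.38 without LD1 C, so its sign depended on the C libraries. In the authors' deposited table, made with edgeR, the log2 fold changes of TPS11 were -4.89, -3.86 and -1.03 for the same comparisons, with unadjusted p-values of 0.00489, 0.0196 and 0.512. The LD3 libraries enter both of the larger changes, so these are not separate evidence.

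The size of this difference depended on LD0 C, which held 85.3% of all TPS11 reads, split evenly over read 1 with 279 and read 2 with 271. Under 19 alternative settings the LD3 value stayed below the LD0 value, with a log2 fold change from -7.04 to -1.88, the latter without LD0 C. It was -3.72 without LD3 C, -4.30 without LD1 C, and -6.84, -6.83 and -7.04 without LD0 A, LD0 B and LD3 B. In libraries A and B alone it was -2.50 ± 1.22 with an adjusted p of 0.788, and between the C libraries the levels were 339 and 1.35 CPM. The adjusted p was 0.0278 when genes with low counts were kept and 0.0334 by DESeq2, and above 0.05 under the other settings, up to 0.998. In this bulk tissue, fewer cells of a type and less RNA per cell cannot be told apart. The seed markers moved the same way: all 13 had a negative change between LD0 and LD3, their median being -5.47 on the log2 scale, 12 with an unadjusted p under 0.05, where 47.1% and 7.92% of all genes did so. Their summed level ran from 13829 to 81401 CPM at LD0, from 1543 to 25736 at LD1 and from 826 to 2613 at LD3. The part of seed-gene RNA in the TPS11 values was not tested.

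**Figure D2:**
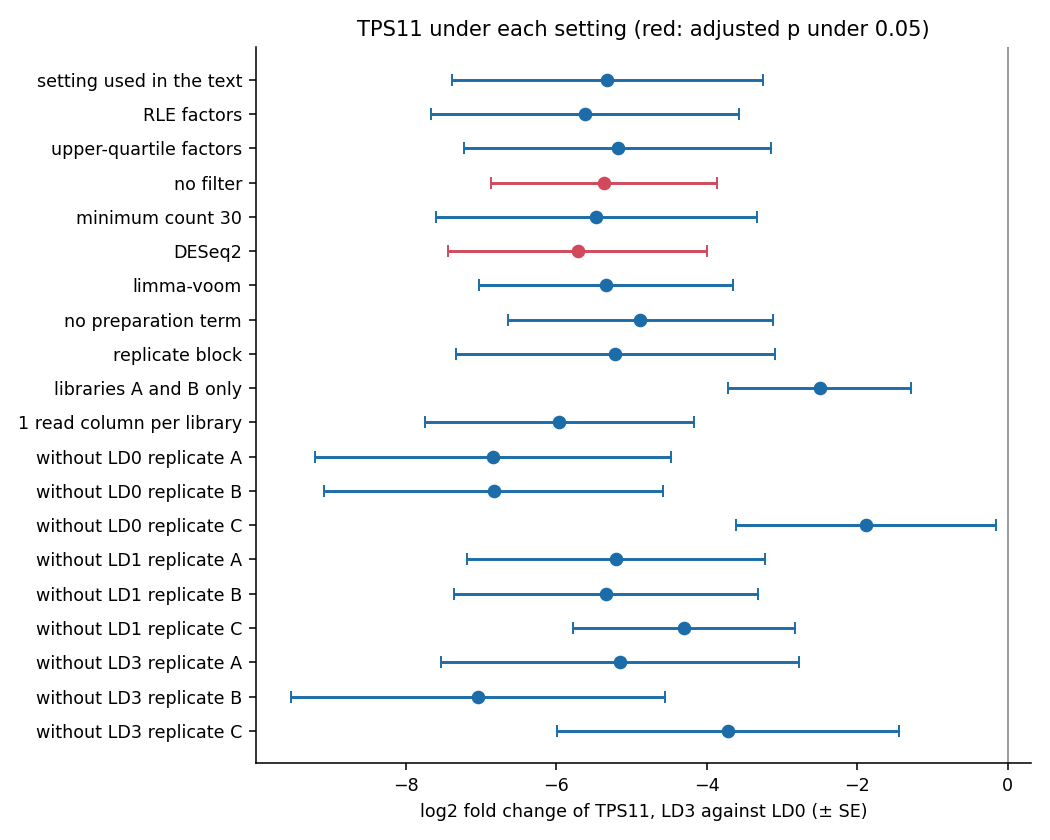
Fitted log2 fold change of TPS11 for LD3 against LD0, with its SE, under the setting used in the text and each of 19 alternatives; red marks an adjusted p under 0.05. All values are below 0, the smallest in size at -1.88 without LD0 replicate C, and 2 of the alternatives are red.

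The phosphatases are represented by TPPA and TPPB, both known to hydrolyse trehalose 6-phosphate. TPPA stood at 53.8, 19.0 and 7.40 CPM at LD0, at 0, 70.4 and 28.9 at LD1 and at 39.0, 42.3 and 21.2 at LD3. Its means were 26.7 ± 24.1, 33.1 ± 35.4 and 34.2 ± 11.3 CPM, and the groups overlapped. The changes of TPPA were 0.67 ± 1.28 for LD1 against LD0 and 0.58 ± 1.27 for LD3 against LD0, with adjusted p-values of 0.950 and 0.959. Both were smaller than their SE. TPPB had 1 read in LD1 A and 1 in LD1 C and none elsewhere. In LD3 C, 3 reads would have been 0.337 CPM.

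Over the 7 tested genes, 4 had a positive and 3 a negative change for LD1 against LD0, 3 a positive and 4 a negative change for LD3 against LD0, and 1 a positive and 6 a negative change for LD3 against LD1. Over all genes tested, 48.2%, 52.9% and 52.9% of changes were positive and 51.8%, 47.1% and 47.1% negative in these comparisons. None of the 21 pairwise tests of the family gave an adjusted p under 0.05 in edgeR, as for 0% of the 9300 genes in each comparison. DESeq2 called TPS11 for LD3 against LD0 and no other member, in a comparison where it called 296 of the 9300 genes, and edgeR without the filter also called TPS11 alone, among 367 of 23312 genes. Limma-voom called no member. An unadjusted p under 0.05 was found for 0 members in LD1 against LD0, where 6.37% of all genes had one, for TPS11 alone in LD3 against LD0, where 7.92% had one, and for TPS11 alone in LD3 against LD1, where 4.08% had one. In a joint test for any difference between the 3 time points the smallest adjusted p of the family was 0.824, for TPS11, and 0.0108% of all genes passed. No member had an unadjusted p under 0.05 in the joint test, against 5.74% of all genes.

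**Figure D3:**
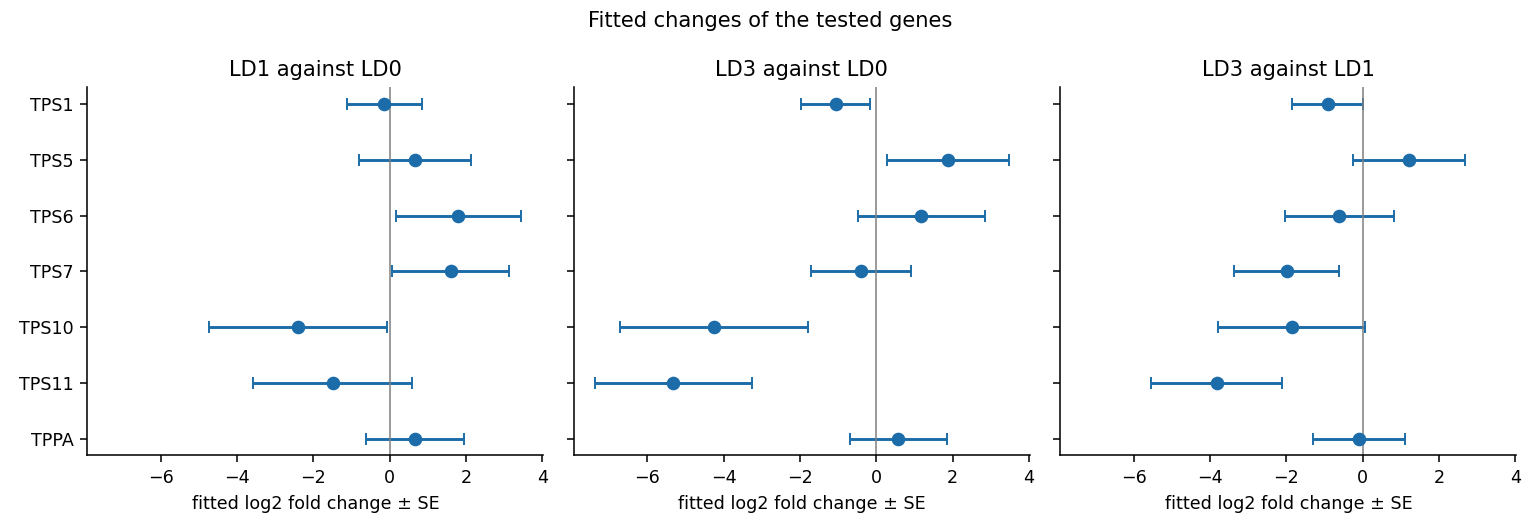
Fitted log2 fold changes with their SE for the 7 tested genes in the 3 comparisons. TPS11 lies farthest below 0 for LD3 against LD0, at -5.32, and for LD3 against LD1, at -3.82, while TPS5 is the highest gene for LD3 against LD0, at 1.88.

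Summed over the family, the level was 197, 408 and 681 CPM in the LD0 libraries A, B and C, 356, 458 and 735 CPM in the LD1 libraries and 133, 183 and 356 CPM in the LD3 libraries. In each letter LD3 was the lowest and LD1 the highest of the 3. The place of LD1 depended on the TMM scaling. As a plain share of reads, LD0 was above LD1 in B, at 0.0443% and 0.0384%, and in C, at 0.0505% and 0.0462%. LD1 was above LD0 in A, at 0.0434% and 0.0202%, and LD3 stayed the lowest in each letter. Either order mixes different genes, since in LD0 C the 1105 reads of the family included 550 of TPS11 and 417 of TPS1, in LD1 C 257 of 330 were of TPS7, and in LD3 C 833, 942 and 778 of 3169 were of TPS5, TPS6 and TPS1.

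The other genes of trehalose metabolism were found in few libraries. Of 12 listed, 7 were found in the count table, with reads in 1 to 5 libraries each, and none passed the filter on low counts. TPPJ, a phosphatase gene, had 29 reads in LD0 B, 21 in LD1 B and 1 in LD3 B and none in libraries A and C. These stood for 275, 35.2 and 0.693 CPM, and per kb of coding sequence its level in LD0 B, 247 CPM, was above that of each of the 10 members, of which TPS8 was the highest there at 44.3 CPM. Its log2 fold change in the authors' deposited table was -8.64 for LD3 against LD0, with an unadjusted p of 0.00117. TPPH had 3 reads in LD0 A and 21 in LD0 C, TPPD had 19 in LD1 B, and TPPC had 8 in LD0 C and 1 in LD3 B. TPPI had between 1 and 10 reads in 5 libraries. TPS3, a class I relative, had 21 reads in LD0 C alone, and TRE1, the trehalase, had 4 in LD0 B, 22 in LD0 C, 9 in LD1 B and 3 in LD3 B. In LD3 C, the deepest library, all 7 were at 0, where 3 reads would have been 0.337 CPM. TPS2, TPS4, TPPE, TPPF and TPPG are not analysed here.

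SnRK1, the kinase inhibited by trehalose 6-phosphate, has 6 listed subunit genes, and all 6 were tested. Between LD0 and LD3, 4 had a positive and 2 a negative change, with a median of 0.33 beside 0.09 over all genes, and none passed the adjusted threshold. The summed level of the 6 lay between 133 and 174 CPM at LD0, between 79.0 and 188 at LD1 and between 114 and 216 at LD3. KINB3, the regulatory subunit with the smallest joint p, stood at 17.9, 9.50 and 62.9 CPM at LD0, at 0, 5.03 and 17.8 at LD1 and at 31.2, 57.5 and 52.3 at LD3. All LD3 libraries of KINB3 were above those of LD1, as for 7.2% of all genes tested. Its change between the 2 was 3.00 ± 1.19 with an adjusted p of 0.973. KIN11, a catalytic subunit, and the beta subunits KINB1 and KINB2 had log2 fold changes of 0.055, -0.94 and 0.79 from LD0 to LD3, each smaller than its SE.

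Genes known to be switched on by sugar starvation or by SnRK1 made up a list of 17, chosen with earlier results of these data known. Of these, 14 were in the table and 8 were tested. The counts of this list are therefore a description and not separate evidence. For LD3 against LD1 all 8 changes were negative, with a median of -3.28 beside 0.08 over all genes and 5 with an unadjusted p under 0.05, where 47.1% of all genes were negative and 4.08% had such a p. For LD3 against LD0, 6 of 8 were negative with a median of -3.75, beside 0.09 over all genes, and for LD1 against LD0, 6 of 8 with a median of -0.91, beside -0.06. None of the 8 passed the adjusted threshold in any comparison. The summed level over the 14 genes was 3631, 1890 and 1696 CPM in the LD0 libraries, 1548, 3750 and 1102 in the LD1 libraries and 140, 295 and 376 in the LD3 libraries. At LD0 a few genes carried most of it: DRM2, AT3G15450 and DRM1 had means of 998, 583 and 472 CPM. The next highest, ASN1, had 141 CPM, so the sum does not describe the list gene by gene. Like TPS11, this sum was lower in every LD3 library than in every LD0 library, and here also lower than in every LD1 library. The summed seed markers were likewise lower in every LD3 library than in every LD0 library but overlapped between LD3 and LD1, and the part of seed-gene RNA in the starvation list was not tested.

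**Figure D4:**
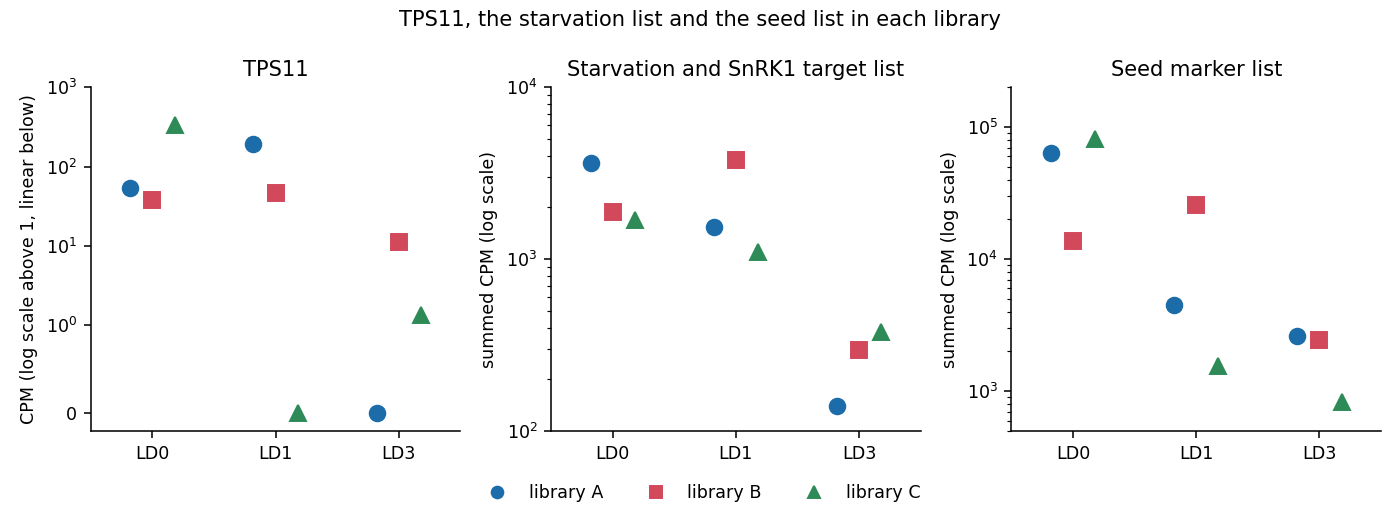
Level of TPS11 in CPM (logarithmic above 1, linear below), and the summed CPM of the starvation and SnRK1 target list and of the seed marker list on logarithmic axes, in each library by time point. The LD3 libraries are below the LD0 libraries in all 3 panels: 0 to 11.1 CPM for TPS11, 140 to 376 CPM for the starvation list and 826 to 2613 CPM for the seed list.

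DRM2, a dormancy-associated gene, stood at 2717, 228 and 49.9 CPM at LD0, at 718, 58.7 and 162 at LD1 and at 7.80, 8.31 and 4.50 at LD3. Its LD3 libraries were below all others. Over all genes tested, 5.18% had every LD3 library below LD0 and 1.96% every LD3 library below LD1. The change of DRM2 from LD0 to LD3 was -6.42 ± 1.41 with an adjusted p of 0.475. DRM1, its relative, had 592, 313 and 511 CPM at LD0, 19.8, 446 and 0 at LD1 and 0, 24.9 and 2.92 at LD3, with LD1 C and LD3 A at 0 as for TPS11. AT3G15450, a locus of the starvation list, had 35.9, 988 and 725 CPM at LD0, 356, 1995 and 51.2 at LD1 and 23.4, 85.2 and 35.2 at LD3, with a change from LD0 to LD3 of -3.74 ± 1.295. DIN10, a raffinose synthase gene of the dark-inducible group, went another way, with 0, 19.0 and 44.4 CPM at LD0, 85.6, 168 and 327 at LD1 and 23.4, 17.3 and 117 at LD3. Every LD1 library of DIN10 was above every LD0 library, as for 4.3% of all genes tested. The change between them was 3.46 ± 0.98 with an unadjusted p of 0.00462 and an adjusted p of 0.772. The genes named here were picked as those of the list with the smallest joint p.

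Of 16 listed genes for the synthesis and cleavage of sucrose, 15 were in the table and 6 were tested, with 2 positive and 4 negative changes from LD0 to LD3 and a median of -1.10. SUS3, a sucrose synthase known from maturing seeds, had 269, 133 and 247 CPM at LD0, 0, 241 and 31.2 at LD1 and 0, 5.54 and 0 at LD3. Its LD3 libraries were all below those of LD0, as for 5.18% of all genes tested and for the summed seed markers. The change of SUS3 was -7.29 ± 1.97 with an adjusted p of 0.560. CINV1, a cytosolic invertase, went from 44.8, 19.0 and 56.1 CPM at LD0 to 46.1, 92.2 and 247 at LD1 and 70.2, 111 and 296 at LD3. All 3 LD3 libraries of CINV1 were above those of LD0, as for 7.55% of all genes tested, with a change of 1.84 ± 0.76 and an adjusted p of 0.610. CINV2, another such invertase, changed by 0.99 ± 1.13 and the vacuolar invertase VINV2 by -5.33 ± 2.50 between LD0 and LD3, with adjusted p-values of 0.897 and 0.643.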

How the data were processed

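Laser-dissected meristem RNA was sequenced in 9 libraries, 3 per time point. The authors deposited counts of reads per locus in 16 columns, which the file headers credit to BLASTN 2.2.21 (7 columns) or BLASTN 2.2.13 (9 columns). No source used here gives the genome build, the use of strand or filters on matches, and genome coordinates are left out. In these deposited counts 49.0% of cells were empty and were read as 0. The columns of a library were summed: 7 libraries had a column for each read of a pair, so a fragment can count in both, whereas LD0 A and LD3 A, the other 2, had a single one. The authors also deposited 3 tables of pairwise log2 fold changes with unadjusted p-values, for which the submitters' processing notes name edgeR.

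The quasi-likelihood F test of edgeR 4.0.16 (R 4.3.3) was run on the counts of genes that filterByExpr kept at a minimum count of 10, with TMM factors and with time point and library preparation (A and B against C) as additive terms. This left 9300 genes and 5 residual degrees of freedom. The SE of an edgeR fold change was worked back from the test, as the size of the change divided by the square root of F. It is thus an approximation, while DESeq2 and limma gave an SE of their own. P-values were adjusted over all 9300 genes by Benjamini-Hochberg, with a threshold of 0.05. The test was tested on simulated data. Alternatives used DESeq2 1.42.0 and limma 3.58.1, other scalings, filters and designs, and left out each library in turn. Coding lengths and sequences are those of the longest coding sequence in RefSeq TAIR10.1, which matched 23073 of the 23338 loci, and exact runs of at least 18 bases were searched in 27562 coding sequences. All 10 members are named, and up to 4 tested genes per list with the smallest joint p. The members and lists were chosen with earlier results of these data known.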

Additional observations from a re-analysis of the deposited data

How the results depend on the processing

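Of 390 fold changes of members recomputed under alternatives, 355 kept their sign and side of the threshold, 33 changed sign and 2 passed the threshold, both of TPS11 for LD3 against LD0: -5.36 without a filter and -5.71 by DESeq2. These made 1 member called in that comparison without a filter and 1 by DESeq2. None of 60 recomputed levels moved by over 1 SD, that between the 3 libraries of the time point. This SD was wide, at 83.7 ± 121 CPM per coding kb for TPS7 at LD1 and 55.5 ± 65.4 for TPS11 at LD0. Staying within it therefore says little about how steady a level is. In libraries A and B only, the sign changed for LD1 against LD0 of TPS7 (-0.61), TPS1 (0.90), TPS11 (1.33) and TPS10 (0.056), for LD3 against LD0 of TPS6 (-0.11) and TPS5 (-0.46), and for LD3 against LD1 of TPS5 (-0.70) and TPPA (0.081). With 1 read column per library it changed for TPS1 (0.30, LD1 against LD0), TPS7 (0.13, LD3 against LD0) and TPPA (0.017, LD3 against LD1). With limma-voom it changed for TPS7 (1.78, LD3 against LD0), TPS6 (0.25) and TPPA (0.38, both LD3 against LD1), with upper-quartile factors for TPPA (0.22, LD3 against LD1), and with no preparation term for TPS6 (0.12, LD3 against LD1).

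Leaving out single libraries gave signs of both kinds for these ranges: in LD1 against LD0, TPS7 -0.14 to 3.22, TPS1 -0.64 to 0.68, TPS11 -3.36 to 0.91, TPS5 -0.29 to 1.74 and TPPA -0.24 to 1.46. In LD3 against LD0 they were TPS7 -1.37 to 1.34 and TPS5 -0.19 to 2.83, and in LD3 against LD1 TPS7 -2.97 to 0.44, TPS6 -1.69 to 0.82, TPS5 -0.84 to 2.18, TPPA -0.67 to 0.74 and TPS10 -6.70 to 5.23. The cause was not tested.

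Over all genes, the counts called were 0, 0 and 0 for LD1 against LD0, LD3 against LD0 and LD3 against LD1, and 1 in the joint test. Without a filter they were 107, 367, 186 and 433, and by DESeq2 30, 296, 6 and 36. For LD3 against LD0, upper-quartile factors gave 1, limma-voom 1, 1 read column per library 5 and leaving out single libraries 0 to 1. In the joint test, RLE factors gave 2, a minimum count of 30 gave 2, limma-voom 0, libraries A and B only 0, 1 read column per library 2 and leaving out single libraries 0 to 7. A fit with the letter as replicate block called 2 genes for LD3 against LD0 and 2 in the joint test, and no member. Deviations of same-letter libraries correlated by 0.0730 to 0.352, over 0.1 in 8 of 9 pairs, and each library correlated best with its own letter in 18 of 18 checks, which is a hint from the data and not from the labels.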
